A study of Mus musculus with 10 samples.

Results

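Forkhead transcription factors of brain endothelium were followed in endothelial cells purified from mouse gliomas, across deletion of either of a pair of Sox genes. The members are Foxo1, Foxo3, Foxc1, Foxc2, Foxf2, Foxq1 and Foxp1, 7 of the 23238 gene symbols with a row in all 10 count files. They were chosen as a list of symbols, with earlier results of these data known. All 7 passed the filter on low counts, and 37 other forkhead genes also had a row. The tumours were grown by intracranial injection of a mouse glioma line into congenic C57BL/6 mice. Sox7-deficient endothelium (2 libraries) came from Sox7fl/fl mice crossed with Cdh5(BAC)-CreERT2, a line in which the promoter of VE-cadherin drives a tamoxifen-inducible recombinase in endothelial cells, and was set against Sox7 control (2 libraries). Sox17-deficient endothelium (3 libraries) came from Sox17fl/fl mice with the same driver and was set against Sox17 control (3 libraries). Per the series' design text, tamoxifen at 20 mg/kg was given to the experimental mice. The alleles carried by the controls, and whether they received tamoxifen, are not given in the sources used here, nor are the age and number of the animals, so effects of the drug or the recombinase cannot be told apart from those of the deletion. Libraries that share a number within an arm, 1 deficient and 1 control, are called a set, and the arms have separate controls. For Sox17 set 1 the pairing rests on that number alone.

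Forkhead factors bind DNA through a winged-helix domain. In endothelium Foxo1 is a metabolic checkpoint that holds cells in quiescence, and AKT, acting downstream of PI3K, expels it and its relative Foxo3 from the nucleus. Foxq1 and Foxf2 belong to the set of transcription factors that mark endothelium of the brain over that of other organs, and Foxc1 and Foxf2 also act in pericytes and in the vessels of the brain. Foxp1 is a repressor expressed in many tissues, endothelium included, and Foxc2 is best known from arteries and from lymphatic vessels and valves. Sox7 and Sox17 are SoxF factors, which bind a core motif written ACAAT.

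Promoter sequences are shown for 3 of the members that were lower in every set, to let the SoxF and forkhead motifs be looked for in them. Each runs 5′ to 3′ on the strand of the gene, from 250 bases before to 50 bases after a transcription start (RefSeq, GRCm38.p6), and capitals mark a match to a searched motif.

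Foxo1, chr3:52268087-52268386, plus strand: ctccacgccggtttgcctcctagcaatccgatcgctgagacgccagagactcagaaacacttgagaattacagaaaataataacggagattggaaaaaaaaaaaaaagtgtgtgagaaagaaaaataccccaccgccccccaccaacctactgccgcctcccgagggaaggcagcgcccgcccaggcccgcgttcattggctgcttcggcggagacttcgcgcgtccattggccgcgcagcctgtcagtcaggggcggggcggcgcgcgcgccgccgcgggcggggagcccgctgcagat

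Foxf2, chr13:31625566-31625865, plus strand: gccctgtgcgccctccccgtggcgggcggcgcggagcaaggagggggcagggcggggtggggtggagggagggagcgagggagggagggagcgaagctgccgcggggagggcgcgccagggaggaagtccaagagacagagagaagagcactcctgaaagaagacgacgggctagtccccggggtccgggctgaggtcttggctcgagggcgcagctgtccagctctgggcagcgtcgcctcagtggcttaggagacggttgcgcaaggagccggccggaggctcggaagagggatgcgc

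Foxp1, chr6:99028249-99028548, minus strand: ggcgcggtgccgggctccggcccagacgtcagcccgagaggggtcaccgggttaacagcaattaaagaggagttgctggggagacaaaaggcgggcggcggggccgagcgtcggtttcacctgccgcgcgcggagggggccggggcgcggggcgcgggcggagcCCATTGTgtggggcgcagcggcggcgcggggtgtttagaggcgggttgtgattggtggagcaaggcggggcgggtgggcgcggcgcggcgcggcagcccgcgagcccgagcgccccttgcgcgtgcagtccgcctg

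The SoxF core was searched as ACAAT on both strands, so that ATTGT also counts, and is found in 31.0% of the 32851 promoters of the same length. The longer form ACAATGG, which contains the core, is found on either strand in 3.66% of them, and the forkhead motif GTAAACA in 3.65%. The Foxo1 and Foxf2 windows printed above hold none of these, and neither do those of Foxc1 and Foxo3. The promoter source used here had no entry for Foxq1 and Foxc2, so these members were not searched. Of 3 Foxp1 starts, the one printed holds 1 match to the longer form on the reverse strand (CCATTGT), another at chr6:99266466-99266765 holds 2 copies of ATTGT, and the remaining start holds none. The printed windows are rich in CpG, with 31 CpG pairs for Foxo1, 27 for Foxf2 and 44 for Foxp1, against a median of 7 over all promoters. A match describes letters only, and the absence of one says only that these letters are not in the window.

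Libraries held between 2082305 counts (Sox17 control 1) and 35068802 counts (Sox17-deficient 2), and the ribosomal RNA precursor Rn45s took 3.93% to 28.8% of them. A floor of 3 counts stood at 0.0846 to 1.36 CPM (counts-per-million of a library size scaled by TMM, the trimmed mean of M-values). The targeted transcripts went with their labels, although the floxed exons are not given, so whether the tags lie in the deleted part is not known. Sox7 averaged 0.62 ± 0.061 CPM in Sox7-deficient and 14.5 ± 12.2 CPM in Sox7 control libraries (SD, n = 2 each), and Sox17 averaged 3.23 ± 3.03 CPM in Sox17-deficient and 119 ± 47.6 CPM in Sox17 control libraries (SD, n = 3 each). All 16 endothelial markers, Cdh5, Pecam1 and Cldn5 among them, had counts in every library. Their summed level was 10600 to 14801 CPM in Sox7-deficient and 15650 to 18005 CPM in Sox7 control libraries, and 10811 to 20648 CPM in Sox17-deficient and 12590 to 16520 CPM in Sox17 control libraries. Sox7-deficient 1 stood apart: 16 macrophage and microglia markers summed to 19118 CPM there, against 147 CPM in Sox7-deficient 2 and 403 to 1130 CPM in the Sox7 controls.

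Foxp1 was the most abundant member, at 585 CPM on average over the 10 libraries, where it ranked 207 among 13040 tested genes. Foxq1 followed at 494 CPM, then Foxo1 at 166, Foxc1 at 152 and Foxf2 at 139 CPM, while Foxo3 averaged 3.36 and Foxc2 1.43 CPM. The library kit makes 1 tag per transcript near its 3′ end, so these levels do not grow with transcript length. The order was not firm between all neighbours. Foxp1 exceeded Foxq1 in 7 of 10 libraries, Foxo1 exceeded Foxc1 in 6 of 10 and Foxc1 exceeded Foxf2 in 6 of 10, whereas Foxq1 exceeded Foxo1 and Foxf2 exceeded Foxo3 in all 10. Foxo1 varied least, with an SD of 0.36 on the log2 scale over the libraries, and Foxc1 most among the 5 abundant members, at 0.62. The median SD over the 3592 genes of at least 50 CPM was 0.54.

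**Figure D1:**
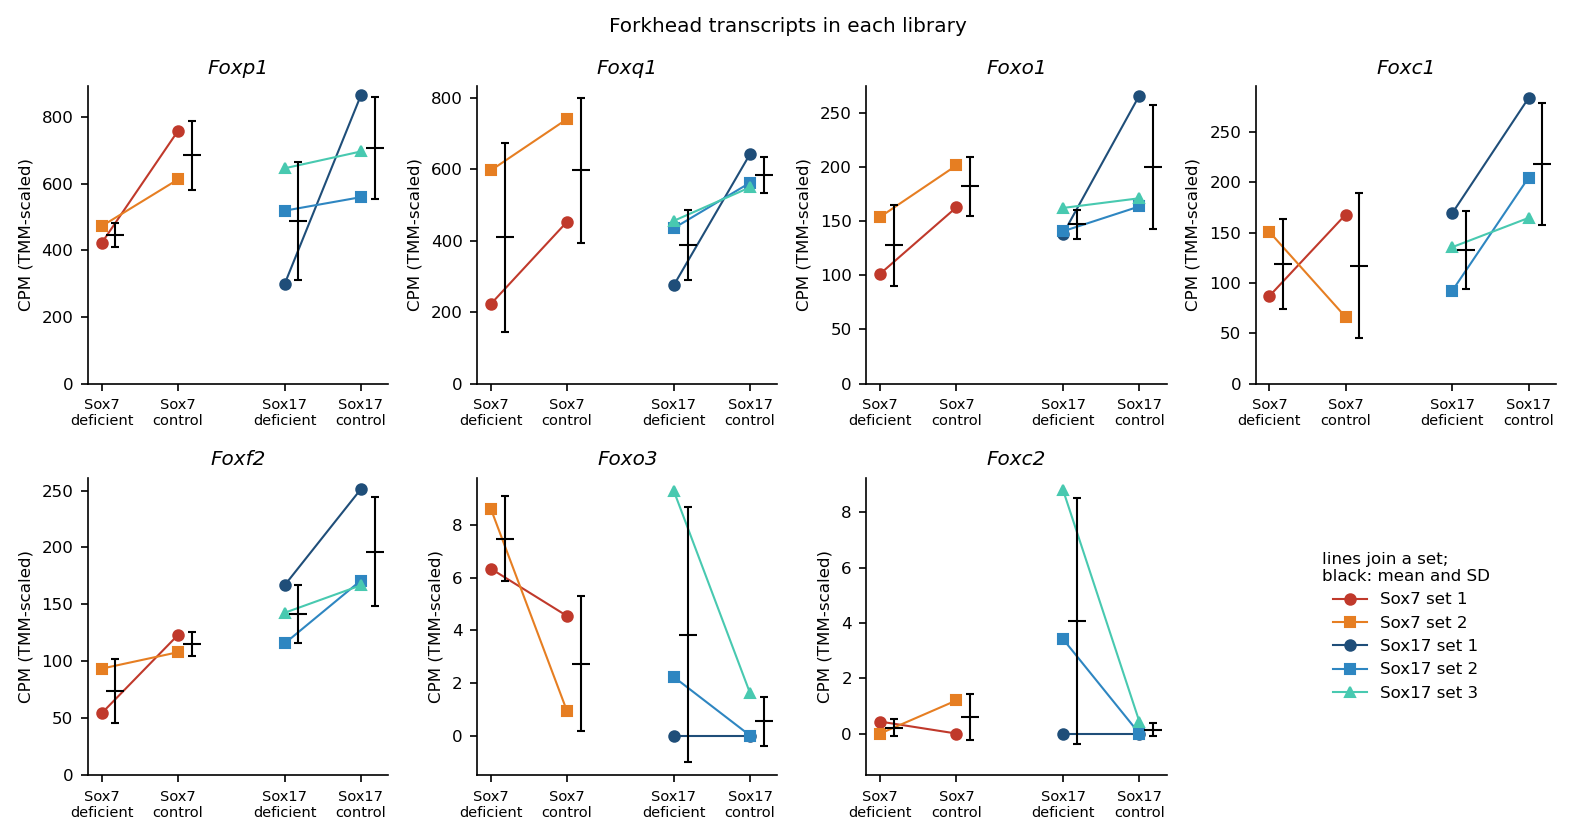
Level of each forkhead member in each library, in CPM on TMM-scaled library sizes; colour and shape give the set, a line joins the deficient and the control library of a set, and black bars give mean and SD. The lines of Foxp1, Foxq1, Foxo1 and Foxf2 slope the same way in all 5 sets, with the deficient library lower, while that of Foxc1 runs the other way in Sox7 set 2; scaled to endothelial markers, Foxo1 and Foxp1 are lower in 4 of 5 sets.

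Foxo1, Foxf2, Foxq1 and Foxp1 were lower in the deficient library than in its control in all 5 sets, and in each arm they averaged 64.0% to 73.4% of control. None of the 7 members passed edgeR's quasi-likelihood test in either arm or in the difference between the arms. In these libraries the test called 0 of 13040 genes (0%) at an adjusted p under 0.05 in the Sox7 comparison, in the Sox17 comparison and in the difference between them. Without adjustment, 195, 459 and 373 genes had p under 0.05 in these 3 contrasts, none of them a member in the Sox7 or the Sox17 comparison. With a term per set (the replicate block) edgeR called 1, 6 and 3 genes, DESeq2 called 3, 29 and 15 and limma-voom 0 in each, with no member among them. All fold changes of members below are therefore differences that do not exceed the spread between libraries in this test. The same test did not call the deleted genes either. Sox7 had a log2 fold change of −4.52 (SE 1.04) in the Sox7 comparison. Sox17 had −5.24 (SE 0.81, edgeR adjusted p = 0.226) in the Sox17 comparison. Of the alternatives, the replicate block (edgeR adjusted p = 0.000903) and DESeq2 (adjusted p = 9.05e-11) did call Sox17 there. Neither called Sox7 in the Sox7 comparison (edgeR adjusted p = 0.298 with the block, DESeq2 adjusted p = 0.0959). The lack of a call thus does not show that a member was unchanged. In bulk samples, fewer endothelial cells and less transcript per cell cannot be told apart.

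Of the FoxO pair, Foxo1 (GRCm38 chromosome 3, 52268336 to 52353221, plus strand, protein-coding) was the abundant member. It was measured at 101 and 154 CPM in Sox7-deficient libraries 1 and 2, against 163 and 202 CPM in Sox7 controls 1 and 2. Both Sox7-deficient libraries lay below both controls. It was measured at 138, 141 and 162 CPM in Sox17-deficient libraries 1, 2 and 3, against 266, 164 and 171 CPM in Sox17 controls 1, 2 and 3. The groups did not overlap here either, although Sox17-deficient 3 and Sox17 control 2 were separated by little. The log2 fold change was −0.51 (SE 0.46) in the Sox7 and −0.44 (SE 0.38) in the Sox17 comparison, with edgeR adjusted p = 1 in both. Within sets, on the log2(CPM + 1) scale, Foxo1 differed by −0.68 and −0.39 in Sox7 sets 1 and 2 and by −0.94, −0.22 and −0.08 in Sox17 sets 1, 2 and 3.

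Foxo3 (chromosome 10, 42181841 to 42276755, minus strand) was low, with no count in 3 libraries. It had 44 and 65 counts in the Sox7-deficient libraries, or 6.35 and 8.62 CPM, against 38 and 10 counts, or 4.55 and 0.92 CPM, in the Sox7 controls. In the Sox17 arm it had 0, 79 and 75 counts in deficient libraries 1, 2 and 3 (0, 2.23 and 9.30 CPM), against 0, 0 and 26 counts in controls 1, 2 and 3 (0, 0 and 1.61 CPM). Where Foxo3 was detected it was higher in the deficient library of the set, in 4 of 4 sets. The log2 fold changes of 1.45 (SE 2.88) and 2.72 (SE 2.46) carry errors too large to give a direction, with edgeR adjusted p = 1 in both arms.

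Foxp1 (chromosome 6, 98925338 to 99522721, minus strand, 31 annotated transcripts) was measured at 422 and 472 CPM in Sox7-deficient libraries 1 and 2, against 758 and 612 CPM in Sox7 controls 1 and 2. The Sox7-deficient libraries lay below the controls. In the Sox17 arm it stood at 299, 519 and 646 CPM in deficient libraries 1, 2 and 3, against 865, 559 and 697 CPM in controls 1, 2 and 3. These groups overlapped, and set 1 was far wider apart than the other two. The difference within sets was −0.84 and −0.37 in the Sox7 sets and −1.53, −0.11 and −0.11 in the Sox17 sets. The log2 fold change was −0.62 (SE 0.48) in the Sox7 and −0.53 (SE 0.39) in the Sox17 comparison (edgeR adjusted p = 1 in both).

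Foxq1, Foxf2 and Foxc1 lie side by side on chromosome 13, all on the plus strand, within 256.343 kb from the start of Foxq1 to the end of Foxc1. Foxq1 runs from 31556134 to 31560976, Foxf2 from 31625816 to 31631403 and Foxc1 from 31806633 to 31812476. A protein-coding gene on the opposite strand, A530084C06Rik, covers 3200 bases of Foxq1 and has no row in the files. The strand setting of the counting is not given in the sources used here, so reads of that gene could count as Foxq1.

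Foxq1 was measured at 223 and 597 CPM in Sox7-deficient libraries 1 and 2, against 453 and 741 CPM in Sox7 controls 1 and 2. These groups overlapped, because both libraries of set 2 were higher than those of set 1. In the Sox17 arm it was measured at 276, 435 and 456 CPM in deficient libraries 1, 2 and 3, against 643, 563 and 550 CPM in controls 1, 2 and 3. Every Sox17-deficient library lay below every control. The difference within sets was −1.02 and −0.31 in the Sox7 sets and −1.22, −0.37 and −0.27 in the Sox17 sets. The log2 fold change was −0.54 (SE 0.51) and −0.59 (SE 0.42) in the Sox7 and Sox17 comparisons, with edgeR adjusted p = 1 in both.

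Foxf2 was measured at 54.2 and 93.5 CPM in Sox7-deficient libraries 1 and 2, against 123 and 108 CPM in Sox7 controls 1 and 2. The groups did not overlap. In the Sox17 arm it was measured at 167, 116 and 143 CPM in deficient libraries 1, 2 and 3, against 251, 171 and 167 CPM in controls 1, 2 and 3. Sox17-deficient 1 and Sox17 control 3 met at nearly the same level, so that these groups just overlapped. The difference within sets was −1.17 and −0.20 in the Sox7 sets and −0.59, −0.56 and −0.22 in the Sox17 sets, and the log2 fold change was −0.64 (SE 0.47) and −0.47 (SE 0.39), with edgeR adjusted p = 1 in both comparisons.

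Foxc1 did not follow its neighbours in the Sox7 arm. It was measured at 87.0 and 151 CPM in Sox7-deficient libraries 1 and 2, against 168 and 66.1 CPM in Sox7 controls 1 and 2. The deficient library was the lower one of set 1 and the higher one of set 2, and the groups averaged nearly the same. In the Sox17 arm Foxc1 stood at 169, 92.4 and 136 CPM in deficient libraries 1, 2 and 3, against 284, 205 and 165 CPM in controls 1, 2 and 3. The deficient library was lower in 3 of 3 Sox17 sets, at differences of −0.74, −1.14 and −0.28 on the log2(CPM + 1) scale, with an overlap between Sox17-deficient 1 and Sox17 control 3. The log2 fold change was 0.02 (SE 0.53) in the Sox7 and −0.72 (SE 0.44) in the Sox17 comparison, and the difference between them was 0.74 (SE 0.69), with edgeR adjusted p = 1 in each arm. A fit of the Sox7 libraries alone gave −0.0036, on the other side of 0.

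**Figure D2:**
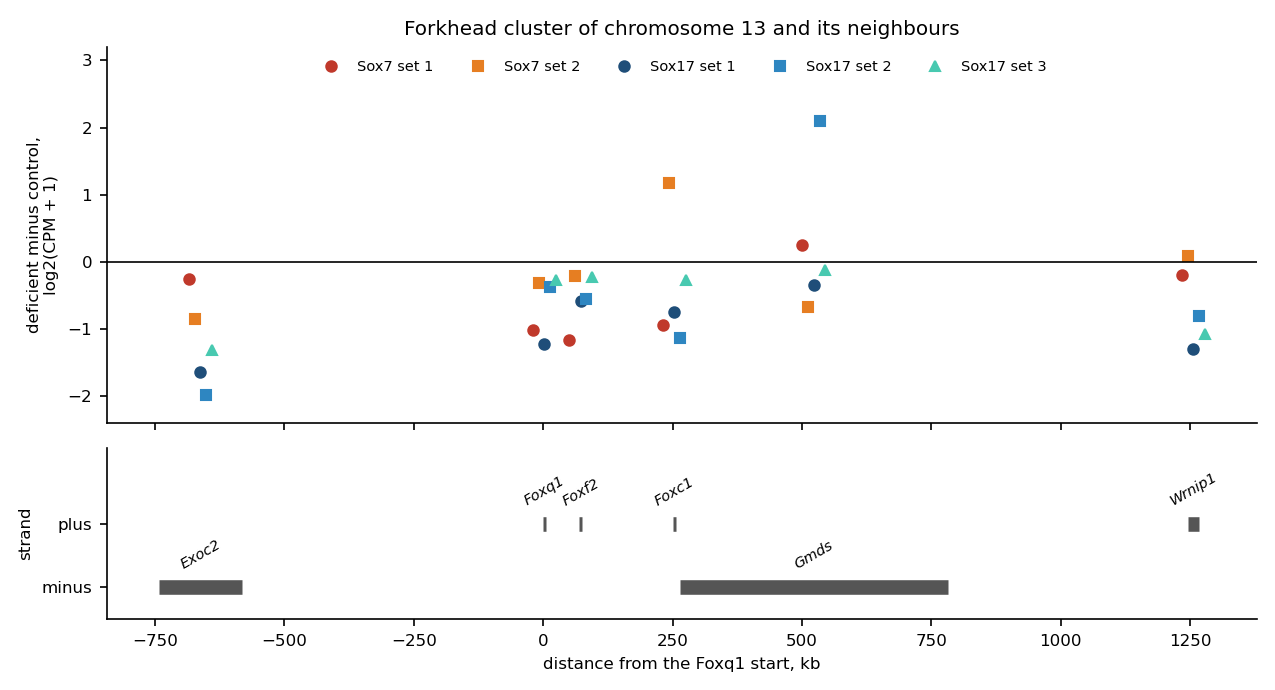
Upper panel, difference between the deficient and the control library of each set on the log2(CPM + 1) scale for genes of the chromosome 13 cluster and neighbours of at least 10 CPM, with the 5 sets spread sideways around the middle of each gene; lower panel, the gene bodies by strand, in kb from the Foxq1 start. Foxq1 and Foxf2 lie below 0 in all 5 sets, Foxc1 and Wrnip1 in 4, and Gmds in 3; Exoc2 also lies below 0 in 5 of 5.

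Genes flanking the cluster were read for position only. Exoc2, an exocyst subunit upstream of Foxq1, averaged 18.4 CPM and was lower in the deficient library of 5 of 5 sets, with log2 fold changes of −0.66 (SE 1.16) and −1.73 (SE 0.97). Gmds, an enzyme of GDP-fucose synthesis downstream of Foxc1, averaged 12.4 CPM and was lower in 3 of 5 sets. The members of the cluster did not keep a fixed ratio. Foxq1 had 1.65 times the counts of Foxf2 in Sox17-deficient 1 and 6.87 times in Sox7 control 2, the lowest and the highest ratio over the libraries.

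Foxc2 (chromosome 8, 121116171 to 121118895, plus strand), the relative of Foxc1, lies 28.026 kb from Foxf1 and 9.044 kb from Foxl1. It had 3 and 0 counts in the Sox7-deficient libraries against 0 and 13 counts in the Sox7 controls, and 0, 121 and 71 counts in Sox17-deficient libraries 1, 2 and 3 against 0, 0 and 7 counts in Sox17 controls 1, 2 and 3. The 121 and 71 counts correspond to 3.41 and 8.80 CPM, and the 7 counts to 0.43 CPM. Foxc2 was thus higher in 2 of 3 Sox17-deficient libraries and undetected in both libraries of set 1, where the floor was 0.412 CPM in the deficient and 1.36 CPM in the control library. The fitted Sox17 log2 fold change of 4.54 (SE 3.07) rests on these few counts and has edgeR adjusted p = 1, and that of the Sox7 comparison was −1.44 (SE 3.34).

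**Figure D3:**
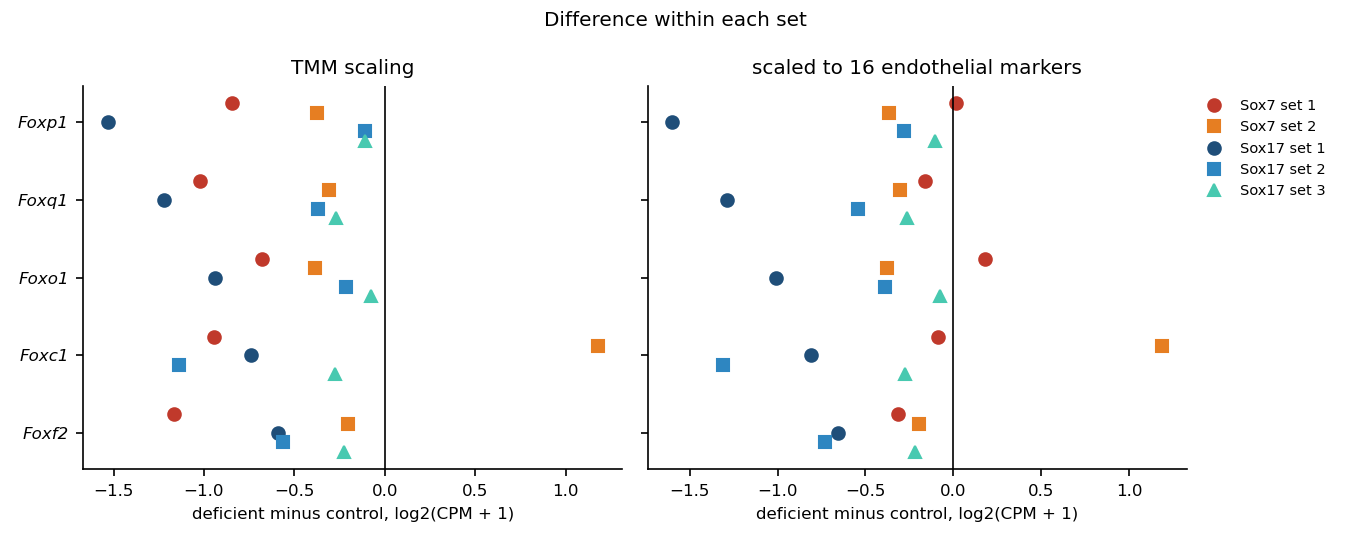
Difference between the deficient and the control library of each set, in log2(CPM + 1), for the 5 abundant members under TMM scaling (left) and with libraries scaled to 16 endothelial markers (right). Under TMM all points of Foxp1, Foxq1, Foxo1 and Foxf2 lie left of 0; scaled to endothelial markers, Foxo1 and Foxp1 in Sox7 set 1 lie right of 0 at 0.18 and 0.02.

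Across the members, 4 of 7 were lower in all 5 sets. The share was 3.34% of the 13040 tested genes and 5.07% of the 3592 genes of at least 50 CPM. The members were chosen with earlier results of these data known, so the shares in this paragraph describe them and test nothing. Of 16 endothelial markers, 14 had a log2 fold change below 0 in the Sox7 comparison and 6 in the Sox17 comparison. An exact sign-flip permutation test over 5 sets gives every gene of 1 direction in all sets p = 0.0625 (two-sided), the smallest it allows, so it adds nothing for these 4. The exact test gave p = 0.4375 for Foxc1, p = 0.125 for Foxo3 and p = 0.375 for Foxc2. Every Sox7-deficient library lay below every Sox7 control for 3 of 7 members (Foxo1, Foxf2 and Foxp1), against 12.8% of all tested genes, and above for 1 of 7 (Foxo3), against 12.7%. In the Sox17 arm the deficient libraries lay below the controls for 2 of 7 members (Foxo1 and Foxq1), against 4.23% of tested genes, and above for 0 of 7, against 4.13%. The mean of both differences, a contrast chosen after 4 members were seen to be lower in every set, was −0.48 (SE 0.30) for Foxo1, −0.56 (SE 0.31) for Foxf2, −0.57 (SE 0.33) for Foxq1 and −0.58 (SE 0.31) for Foxp1. All had edgeR adjusted p = 1, as this contrast too called 0 of 13040 genes (0%), with 334 at an unadjusted p under 0.05, and 1 gene, no member, with the replicate block. With that block the mean was −0.47 (SE 0.26) for Foxo1, −0.58 (SE 0.27) for Foxf2, −0.64 (SE 0.25) for Foxq1 and −0.59 (SE 0.26) for Foxp1.

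The 4 members were also lower in all 5 sets with edgeR's RLE (relative log expression) size factors, with library totals alone and without Rn45s. The share of all tested genes lower in all 5 sets was computed under TMM only, so it cannot be set beside counts under another scaling. Scaling the libraries to the 16 endothelial markers left 2 of 7 members, Foxf2 and Foxq1, lower in all 5. That scaling moved the median log2 fold change of all genes by 0.51 in the Sox7 comparison. With it the Sox7 log2 fold change became −0.11 for Foxo1, −0.26 for Foxf2, −0.25 for Foxq1 and −0.15 for Foxp1, while the Sox17 values were −0.55, −0.55, −0.70 and −0.66 in the same order. Leaving out Sox7-deficient 1, the library with the macrophage transcripts, gave Sox7 log2 fold changes of −0.27 for Foxo1, −0.33 for Foxf2, −0.02 for Foxq1 and −0.56 for Foxp1. The part of that library's makeup in the results was not tested.

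For the 4 members lower in every set, the deletions did not differ by more than the error of that difference. The Sox7 difference minus the Sox17 difference was −0.07 (SE 0.59) for Foxo1, −0.17 (SE 0.61) for Foxf2, 0.05 (SE 0.66) for Foxq1 and −0.08 (SE 0.61) for Foxp1, with edgeR adjusted p = 1 for each. Scaled to endothelial markers these became 0.44, 0.29, 0.45 and 0.51. Errors of this size leave room for a difference in either direction.

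Markers of other cells moved with some comparisons. Foxf2 and Foxc1 are also expressed in pericytes, whose 13 markers summed to 1164 to 1307 CPM in Sox7-deficient and 1306 to 1543 CPM in Sox7 control libraries, and to 942 to 4473 CPM in Sox17-deficient and 1327 to 2363 CPM in Sox17 control libraries. Of these 13 markers, 11 had a log2 fold change below 0 in the Sox17 comparison, where the list's median was −1.03, and 4 did in the Sox7 comparison, where it was 0.51. Rgs5, a pericyte marker, stood at 92.5, 58.6 and 48.5 CPM in Sox17-deficient libraries, against 640, 207 and 115 CPM in Sox17 controls. Pdgfrb, another, stood at 8.25, 64.6 and 75.9 CPM against 58.5, 171 and 64.3 CPM. Its groups overlapped, and in set 3 the deficient library was the higher one. The 8 smooth muscle markers summed to 255 to 565 CPM in Sox17-deficient and 389 to 933 CPM in Sox17 control libraries. They summed to 401 to 546 CPM in Sox7-deficient and 262 to 456 CPM in Sox7 control libraries. Of these 8, 7 had a log2 fold change below 0 in the Sox17 comparison and 8 had one above 0 in the Sox7 comparison. The 9 erythroid markers summed to 88 to 505 CPM in Sox17-deficient and 192 to 3371 CPM in Sox17 control libraries. The highest of these values was in Sox17 control 1, the shallowest library and the one with the highest Foxo1, Foxc1, Foxf2 and Foxp1. Without that library the Sox17 log2 fold change was −0.20 for Foxo1, −0.27 for Foxf2, −0.49 for Foxc1 and −0.38 for Foxp1. The part of these cells in the member values was not tested. Astrocyte markers (8) summed to 195 to 947 CPM in Sox7-deficient and 163 to 826 CPM in Sox7 control libraries, and to 199 to 298 CPM in Sox17-deficient and 203 to 517 CPM in Sox17 control libraries. Neuronal markers (8) summed to 2.27 to 54.9 CPM and lymphatic endothelial markers (6) to 90.7 to 157 CPM over the 10 libraries. The lymphatic sum does not show lymphatic cells. In Sox7-deficient 2 only 1 of the 6 genes had a count, at 136 CPM. Prox1 stood at no more than 3.97 CPM (Sox17-deficient 3) and Lyve1 at no more than 14.2 CPM (Sox17-deficient 1). Of 5 neuronal markers tested, 5 lay above 0 in the Sox17 (median 2.29) and 3 in the Sox7 comparison (median 0.74). Proliferating and glioma cell markers (9) summed to 530 to 788 CPM in Sox17-deficient and 281 to 553 CPM in Sox17 control libraries. Of 8 tested, 7 lay above 0 in the Sox17 (median 0.90) and 3 in the Sox7 comparison (median −0.20). Their part was not tested either.

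**Figure D4:**
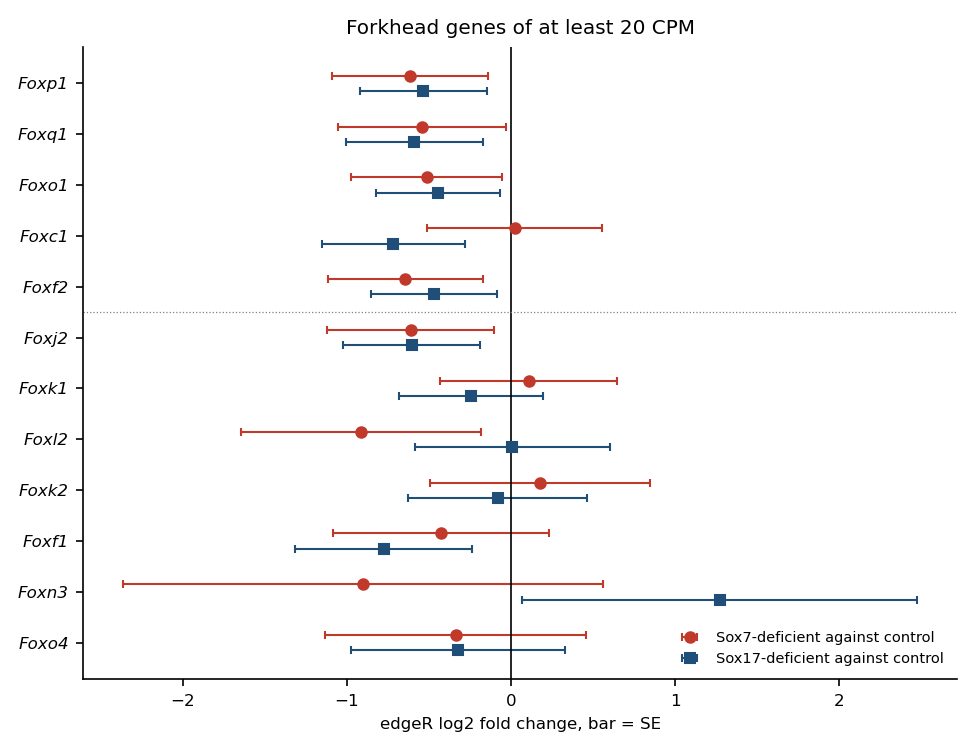
edgeR log2 fold change with its standard error for forkhead genes of at least 20 CPM, Sox7-deficient against control (red circles) and Sox17-deficient against control (blue squares); members stand above the dotted line. Member values lie between −0.72 and 0.02, Foxc1 of the Sox7 comparison changes side with the fit, and none has an adjusted p below 1.

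Of the other 37 forkhead genes with a row, 12 had no count in any library, 16 passed the filter and 7 averaged at least 20 CPM. The 7 were Foxj2 (110 CPM), Foxk1 (107 CPM), Foxl2 (44.7 CPM), Foxk2 (41.5 CPM), Foxf1 (40.9 CPM), Foxn3 (37.0 CPM) and Foxo4 (23.8 CPM). Foxl2, like Foxq1 and Foxf2, is known from brain endothelium, and Foxo4 is another AKT-controlled FoxO factor. Of the 16, only Foxf1, the neighbour of Foxc2 and close relative of Foxf2, was lower in all 5 sets, with log2 fold changes of −0.43 (SE 0.66) and −0.78 (SE 0.54). Among the 7 genes of at least 20 CPM, the smallest p in the Sox7 comparison belonged to Foxl2 (−0.91, SE 0.73) and Foxj2 (−0.61, SE 0.51), and in the Sox17 comparison to Foxj2 (−0.60, SE 0.42) and Foxf1. All had edgeR adjusted p = 1. Of the 16, 13 had a fold change below 0 in the Sox7 comparison (median −0.61) and 8 in the Sox17 comparison (median −0.04). Over all tested genes the median was 0.04 and 0.05.

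Among 18 genes of the PI3K-AKT pathway that controls FoxO proteins, 0 passed the edgeR test in either arm, and the medians were −0.22 in the Sox7 and −0.08 in the Sox17 comparison. Beside this list and those below, 6269 of the 13040 tested genes lay below 0 in the Sox7 and 6141 in the Sox17 comparison. Of 16 endothelial markers, 14 and 6 did. In the Sox7 comparison 12 of the 18 lay below 0, and the smallest p belonged to the kinases Akt2 (0.90, SE 0.56) and Akt1 (−0.66, SE 0.49). Genes given with values from this list and those below were among the 2 with the smallest p in a comparison, so groups that do not overlap add no support. Groups did not overlap for 25.6% of tested genes in the Sox7 and 8.35% in the Sox17 arm. In the Sox17 comparison 9 of the 18 genes of the PI3K-AKT pathway lay below 0. There the growth factor receptor Igf1r had 355, 213 and 248 CPM in Sox17-deficient libraries 1, 2 and 3, against 1354, 362 and 335 CPM in Sox17 controls 1, 2 and 3. The groups overlapped, and the log2 fold change was −1.33 (SE 0.57, edgeR adjusted p = 1), and −1.66 to −0.37 with 1 library left out. Pik3ca, the catalytic subunit of PI3K, had 42.6, 55.3 and 58.9 CPM in Sox17-deficient libraries 1, 2 and 3, against 199, 69.4 and 50.1 CPM in Sox17 controls 1, 2 and 3. It was lower in sets 1 and 2 and higher in set 3, and its log2 fold change of −1.02 (SE 0.51, edgeR adjusted p = 1) ran from −1.36 to −0.20 with 1 library left out.

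Among 24 known FoxO targets, 0 passed in either arm, with 15 below 0 in the Sox7 comparison (median −0.16) and 13 in the Sox17 comparison (median −0.09). Angpt2, a Tie2 ligand and a Foxo1 target in endothelium, had 427, 598 and 530 CPM in Sox17-deficient libraries 1, 2 and 3, against 281, 276 and 325 CPM in Sox17 controls 1, 2 and 3. Every Sox17-deficient library lay above every control, and the log2 fold change was 0.82 (SE 0.37, edgeR adjusted p = 1). In the Sox7 comparison Angpt2 was at −0.10 (SE 0.45). Pdk4, which restrains pyruvate oxidation, had no count in any Sox17-deficient library and 0, 15 and 24 counts in the controls. Its log2 fold change of −6.42 (SE 3.07) rests on these few counts. In the Sox7 arm Pdk4 had 3 and 0 counts in the deficient and 1 and 98 counts in the control libraries of sets 1 and 2. In the Sox7 comparison the smallest p belonged to Mxi1, a Myc antagonist (1.68, SE 0.98), and the antioxidant enzyme Cat (0.78, SE 0.64), both with edgeR adjusted p = 1.

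Of 14 genes linked to FoxC factors in vessels, 12 were tested and 0 passed, with 9 below 0 in the Sox7 (median −0.36) and 7 in the Sox17 comparison (median −0.23). Cxcl12, the ligand of Cxcr4, had 541, 741 and 457 CPM in Sox17-deficient libraries 1, 2 and 3, against 1509, 4119 and 846 CPM in Sox17 controls 1, 2 and 3. The groups did not overlap and the log2 fold change was −1.90 (SE 0.57, edgeR adjusted p = 1). The integrin subunit Itgb3 had 66.7, 104 and 81.3 CPM in Sox17-deficient libraries 1, 2 and 3, against 19.0, 31.8 and 53.3 CPM in the controls. It was higher in every Sox17-deficient library, at a log2 fold change of 1.27 (SE 0.49, edgeR adjusted p = 1). In the Sox7 comparison the smallest p belonged to Cxcr4 (1.34, SE 0.84) and the Notch ligand Dll4 (−0.81, SE 0.55). Cxcr4 stood at −1.33 without Sox7-deficient 1.

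Of 22 transcription factors and Wnt pathway genes of brain endothelium, 0 passed, with 19 below 0 in the Sox7 (median −0.53) and 11 in the Sox17 comparison (median −0.09). The list holds Sox7 and Sox17. Beside it, 14 of the 16 endothelial markers lay below 0 in the Sox7 comparison (median −0.42) and 6 in the Sox17 comparison (median 0.12). Bcl6b, a repressor enriched in endothelium, had 86.7 and 65.1 CPM in Sox7-deficient libraries 1 and 2, against 224 and 178 CPM in Sox7 controls 1 and 2. The groups did not overlap, and the log2 fold change was −1.41 (SE 0.48, edgeR adjusted p = 1). Mecom, known from arterial endothelium, was at −1.05 (SE 0.55) in that comparison. Zfp551, a zinc finger gene, had no count in any Sox17-deficient library and 43, 23 and 33 counts in the controls. In the Sox7 arm it had 24 and 0 counts in the deficient and 35 and 0 counts in the control libraries of sets 1 and 2.

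Foxf2 has been linked to Tie2 and endothelial nitric oxide synthase signalling. Of 11 genes of that axis, 9 were tested and 0 passed, with 7 below 0 in the Sox7 (median −0.41) and 5 in the Sox17 comparison (median −0.38). Ptprb, the phosphatase that dampens Tie2, had 871, 600 and 692 CPM in Sox17-deficient libraries 1, 2 and 3, against 2739, 846 and 993 CPM in the controls. Sox17-deficient 1 overlapped the controls, and the log2 fold change was −1.08 (SE 0.45, edgeR adjusted p = 1), and −1.38 to −0.36 with 1 library left out. In the Sox7 comparison the smallest p belonged to the receptor Tie1 (−0.64, SE 0.49) and to Nos3, the nitric oxide synthase of endothelium (−0.51, SE 0.53).

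Profiles over the 10 libraries were compared by the root mean square difference of centred log2(CPM + 1) among 8316 genes of at least 10 CPM, as a description. A profile close to that of Foxo1 was that of Gng11 (0.17), and the profiles most like Foxp1 were those of Crim1 (0.17) and Slco2b1 (0.22), and most like Foxq1 those of Scrib and Rhobtb1 (0.23 each). Foxf2 was closest to Myo10 (0.24) and to Ocln (0.26), which encodes a tight junction protein, and Foxc1 to Dtx3 (0.22) and Smc5 (0.23). Foxo3 and Foxc2 had no profile this close, the nearest being Ccdc36 (0.61) and Fasn (0.66) for Foxo3 and Rnf5 (0.66) and Sccpdh (0.69) for Foxc2. Among the members, Foxo1 lay 0.30 from both Foxp1 and Foxq1. Within the chromosome 13 cluster Foxf2 lay 0.41 from Foxc1 and 0.56 from Foxq1, and Foxc1 and Foxq1, at 0.71, were the farthest apart of the 5 abundant members.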

How the data were processed

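RNA from purified glioma endothelium was sequenced in 10 libraries made with the Lexogen QuantSeq kit from 500 ng of total RNA, per the labels' protocols. The deposited values were raw counts per gene symbol, 1 file per library. Bowtie2, edgeR and build mm10 are named in the submitters' processing notes. The annotation, counting tool and strand setting are not given in the sources used here. Names starting in Mir that only the Sox17 files list (1183) were left out, and repeated symbols were summed. No molecular identifiers are mentioned, so floors cover counting error only. The labels do not say that libraries came from separate animals, so p-values cover only the spread among these libraries, and part of it may be technical.

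Groups and set numbers came from sample titles. Date codes in the sample descriptions join 4 of the 5 sets, so for these the set numbers pair the libraries. None is given for Sox17 set 1, which is paired by the number in the titles alone. The fit reported has no term per set, and an alternative adds one (the replicate block). The deviations of paired libraries from their group means correlated at 0.193 in the Sox7 arm and at 0.12, 0.0911 and 0.0896 in Sox17 sets 1, 2 and 3.

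Counts were tested in R 4.3.3 with the robust quasi-likelihood F-test of edgeR 4.0.16. All 10 libraries were fitted with a mean per group, 6 residual degrees of freedom and TMM scaling. After filterByExpr 13040 genes were tested. Adjusted p-values (Benjamini-Hochberg, all tested genes, threshold 0.05) were computed per contrast. Standard errors are |log2 fold change| / √F. The scripts were tested on simulated data with less spread than these libraries, where edgeR's common biological coefficient of variation was 0.989. That run checked the code and not the power of the test here. Alternatives used DESeq2 1.42.0, limma 3.58.1, other scalings and filters, the replicate block and each library left out.

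The members and gene lists were chosen with earlier results of these data known. Beside the members, the text names the other forkhead genes of at least 20 CPM, the 2 genes of each list with the smallest p in each comparison, the 2 most alike profiles and chromosomal neighbours; some genes that this rule names are not reported here. Marker genes outside that rule were chosen after their values were seen.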

Additional observations from a re-analysis of the deposited data

Results flagged for a closer look

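Nos3, the endothelial nitric oxide synthase, was flagged because its set differences had opposite signs between the arms. It was lower in both Sox7 sets, at differences of −0.83 and −0.33 on the log2(CPM + 1) scale, and higher in all 3 Sox17 sets, at 0.11, 0.13 and 0.45. The Sox7 difference minus the Sox17 difference was −0.78 (SE 0.68) on the log2 scale and did not pass the test (edgeR adjusted p = 1.0). The Sox7 log2 fold change of Nos3, −0.51 (SE 0.53), ran from −1.20 to −0.07 with 1 library left out. The median of the endothelial markers in that comparison was −0.42. Only members and named genes were searched for such signs, and the share over all genes was not computed. No group has 4 or more libraries, so no library was checked as an outlier of its group.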

How the results depend on the processing

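No member was called under any of 19 alternatives in either arm or of 18 in the interaction and the mean of both, where the lowest adjusted p of a member was 0.783. Of 516 member fold changes under an alternative, 26 changed sign, 20 of them when 1 library was left out. The numbers of all genes called, 0 in the Sox7, Sox17 and interaction contrasts and in the mean of both, were 58, 30, 58 and 23 without a filter on low counts, 3, 29, 15 and 6 with DESeq2, and 1, 6, 3 and 1 with the replicate block. With each library left out in turn they ran from 0 to 14, 0 to 1, 0 to 9 and 0 to 4, the maxima of 14, 9 and 4 without Sox7-deficient 1. The replicate block changed no member's call. The cause of these differences was not tested. Scaled to endothelial markers, the members whose groups did not overlap numbered 2 in the Sox7 and 1 in the Sox17 arm (27.9% and 8.14% of tested genes), against 4 and 2 with TMM (25.6% and 8.35%). With 1 library left out, which by itself makes such separation more common, they numbered 4 to 7 (52.3% to 63.8% of tested genes) and 2 to 6 (13.8% to 19.4%). Fold changes on the other side of 0 were, scaled to endothelial markers, the interaction of Foxo1 (0.44), Foxf2 (0.29) and Foxp1 (0.51); with the arm alone, Foxc1 in the Sox7 arm (−0.0036); and for the interaction of Foxq1, limma-voom (−0.078) and the replicate block (−0.050). With 1 library left out, sign changes occurred in the interaction of Foxo1 (range −0.40 to 0.19), Foxo3 (−6.96 to 0.48), Foxf2 (−0.62 to 0.16), Foxq1 (−0.84 to 0.58) and Foxp1 (−0.35 to 0.17). They also occurred in the Sox7 comparison for Foxc1 (−0.50 to 0.82), Foxc2 (−5.86 to 4.39), Akt1 (−1.18 to 0.094), Cat (−0.27 to 1.35) and Cxcr4 (−1.33 to 2.21), and in the mean of both for Foxc1 (−0.61 to 0.044) and Foxc2 (−0.66 to 4.47). Where leaving out a library leaves 1 in a group, that library is assumed to vary like the others. Foxo3 and Foxc2 had no count in 3 and 5 of the 10 libraries, where a floor of 3 counts allows 0.237 to 1.36 CPM.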
